A study of Homo sapiens with 32 samples.

Results

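SOX2 and 8 other SOX transcription factor genes, SOX4, SOX5, SOX6, SOX8, SOX9, SOX11, SOX12 and SOX13, were followed in U2OS cells of 4 p53 genotypes with and without the DNA-damaging drug etoposide. These are 9 of the 35587 gene symbols in the deposited expression matrix, and all 9 were detected well enough to be tested. The genes were taken by name, but SOX2 was chosen on measured values, namely its lower level with etoposide. Its etoposide responses are therefore a description with no test, while its differences between genotypes at the same treatment were tested.

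U2OS is a human osteosarcoma line that carries wild-type p53. Lines edited with CRISPR-Cas9 were compared with their WT parent: KO cells, labelled as p53 knockout, HET cells (p53 WT/A347D), HOM cells (p53 A347D/A347D) and WT cells (p53 WT/WT). The series title describes A347D as a mutant that leaves p53 in dimers, where the normal protein binds DNA as a tetramer. Each genotype received 20 µM etoposide, which traps topoisomerase II on broken DNA, or the solvent DMSO, for 24 h, and poly-A RNA was sequenced from 4 plates in each of the 8 groups. The labels do not give the number of edited clones, so genotype and clone cannot be told apart, and p-values measure the spread between plates.

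SOX proteins bind DNA through a shared HMG box and bend it, usually beside a partner factor. SOX2 is a SoxB1 factor of pluripotent and neural stem cells, and in mouse it has been tied to self-renewal of osteosarcoma-initiating cells. SOX4, SOX11 and SOX12 form the SoxC group of progenitor cells, SOX8 and SOX9 belong to the SoxE group, and SOX5, SOX6 and SOX13 form the SoxD group, which has no transactivation domain of its own. In mouse, Sox9 with Sox5 and Sox6 drives cartilage formation.

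Recovered counts per library were 18.25 to 24.19 M, except in the etoposide-treated HET replicate 2, which had 8.05 M. Levels are normalized counts, that is, counts divided by the authors' library factors; 3 counts in a library correspond to 2.301 to 6.371 normalized counts, which covers counting error only. Replicates 2, 3 and 4 of HOM with DMSO stood apart: normalized counts summed to 32.02, 36.84 and 47.28 M there, against 16.17 to 24.68 M elsewhere. Mitochondrial genes took 20.68 to 21.92% of them, whereas the remaining DMSO libraries had 7.87 to 15.15%. SOX values and list counts that rest on them are also given without them. Of 12 osteosarcoma and mesenchyme markers 10 were tested, led by VIM, COL1A1 and SPARC, whereas TWIST1 and IBSP stayed at or below 7.09 in every library. The blood marker HBB and the glial marker SOX10 reached no more than 1.931 and 12.74 in any library. The epithelial keratins KRT8 and KRT18 were plentiful, at group means of 2662 to 9311 and 3814 to 18647, while EPCAM averaged 131.4 at most. Summed per library, the 8 epithelial markers lay at 8912 to 20681 with etoposide and 5950 to 38441 with DMSO, the 6 blood markers at 184.5 to 512.7 and 44.6 to 484.2, and the 6 endothelial markers at 168.1 to 453.2 and 166.1 to 426.9; their part in the results was not tested.

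The promoters shown are those of 4 genes with lower levels after etoposide in every genotype, SOX2, SOX12, SOX5 and SOX6, and of SOX13, which passed no etoposide test. They are RefSeq sequences on GRCh38.p14, each from 250 bases before to 50 after the start, read 5′ to 3′ on the gene's strand. Capitals mark the motifs searched on both strands. SOX2 lies at chr3:181711675-181711974 on the plus strand, SOX12 at chr20:325302-325601 (plus), SOX5 at chr12:24562442-24562741 (minus), the most upstream of 5 listed SOX6 starts at chr11:16738428-16738727 (minus) and SOX13 at chr1:204072865-204073164 (plus).
SOX2: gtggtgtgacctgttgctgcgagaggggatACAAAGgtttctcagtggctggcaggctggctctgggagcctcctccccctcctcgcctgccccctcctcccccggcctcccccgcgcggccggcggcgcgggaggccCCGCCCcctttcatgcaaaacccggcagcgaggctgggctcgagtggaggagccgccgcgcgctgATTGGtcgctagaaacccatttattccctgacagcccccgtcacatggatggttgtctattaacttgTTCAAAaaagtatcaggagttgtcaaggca
SOX12: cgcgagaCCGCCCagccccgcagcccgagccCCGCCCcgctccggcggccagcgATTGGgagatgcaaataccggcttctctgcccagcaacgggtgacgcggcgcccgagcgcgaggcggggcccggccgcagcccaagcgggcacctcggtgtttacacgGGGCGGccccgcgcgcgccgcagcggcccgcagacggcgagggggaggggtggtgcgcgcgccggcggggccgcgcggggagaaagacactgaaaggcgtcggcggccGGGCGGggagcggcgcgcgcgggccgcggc
SOX5: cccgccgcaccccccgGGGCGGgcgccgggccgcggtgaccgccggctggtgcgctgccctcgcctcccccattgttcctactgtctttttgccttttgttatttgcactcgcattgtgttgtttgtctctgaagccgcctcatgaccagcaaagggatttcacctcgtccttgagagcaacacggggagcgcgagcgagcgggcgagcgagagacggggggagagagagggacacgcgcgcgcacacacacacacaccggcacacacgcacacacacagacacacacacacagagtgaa
SOX6: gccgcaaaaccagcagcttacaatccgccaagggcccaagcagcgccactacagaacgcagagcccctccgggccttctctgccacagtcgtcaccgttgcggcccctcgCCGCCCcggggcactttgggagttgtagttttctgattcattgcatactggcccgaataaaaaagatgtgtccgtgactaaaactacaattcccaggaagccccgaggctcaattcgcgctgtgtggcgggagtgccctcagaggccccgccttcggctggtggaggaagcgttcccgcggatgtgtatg
SOX13: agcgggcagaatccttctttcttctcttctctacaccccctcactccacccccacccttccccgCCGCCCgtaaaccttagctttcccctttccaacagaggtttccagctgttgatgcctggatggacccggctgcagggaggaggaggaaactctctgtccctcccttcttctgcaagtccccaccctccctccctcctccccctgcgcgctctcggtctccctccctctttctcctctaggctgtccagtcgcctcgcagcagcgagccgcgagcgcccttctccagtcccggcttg
The SOX2 window held 1 CCAAT box, 1 GC box (GGGCGG), 1 SOX element (ACAAAG) and 1 TTTGAA, the core of the CHR element of cell-cycle genes. Of the 35116 promoters in the table, 34.6% held CCAAT, 45% GGGCGG, 16.1% ACAAAG and 15.2% TTTGAA. The SOX12 window held 4 GC boxes and 1 CCAAT box at 80.3% GC, against a median of 58.7% GC over all promoters. The SOX5, SOX6 and SOX13 windows shown each held 1 GC box and none of the other motifs. Among the 10 promoters listed for 6 of the genes, none held an E2F element (TTTCGCGC or TTTGGCGC, in 1.15% of all promoters), an E-box (CACGTG, 7.26%) or a p53 half-site (6.63%). TATAAA, found in 11.5% of all promoters, occurred only at 3 of the other SOX6 starts. A match is a run of letters, not a measured binding site.

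The 9 genes spanned a wide range of expression. Per kilobase of the longest annotated transcript, WT cells with DMSO had about 1270 normalized counts for SOX12, 809 for SOX9, 391 for SOX2, 330 for SOX13 and 293 for SOX4. SOX8, SOX5 and SOX6 were lower on the same scale, at 37.1, 36.5 and 30.8 per kilobase, and SOX11 was lowest at 3.18. Dividing by the median transcript length instead raised SOX13 to 1570, SOX6 to 385 and SOX5 to 320 per kilobase, since those genes have many short annotated transcripts, so only the high levels of SOX12 and SOX9 and the low level of SOX11 are firm. SOX12 supplied 43.2% of the summed normalized counts of all 9 genes in WT with DMSO and SOX2 7.18%. With etoposide in WT, SOX12 supplied 31.4% and SOX2 0.705%.

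SOX2, a single-exon gene of 2.513 kb at chr3:181711924-181714436, was lower with etoposide in all 4 genotypes. In KO cells it had 120.8, 89.43, 94.98 and 107.6 normalized counts with etoposide, against 792.3, 728.2, 763.1 and 757.2 with DMSO. In HET cells the values were 81.28, 100.5, 80.34 and 55.15 with etoposide, against 741.6, 807.7, 755.9 and 794.7 with DMSO. No etoposide library of these genotypes came near a DMSO library. In HOM cells SOX2 had 166.2, 151.8, 131.1 and 127.6 with etoposide, against 938.2, 631.8, 806 and 486.3 with DMSO. In WT cells it had 55.43, 51.18, 62.71 and 48.19 with etoposide, against 838.8, 1161, 907.6 and 1019 with DMSO. The groups did not overlap in any genotype, and the WT libraries formed both the lowest etoposide group and the highest DMSO group.

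**Figure D1:**
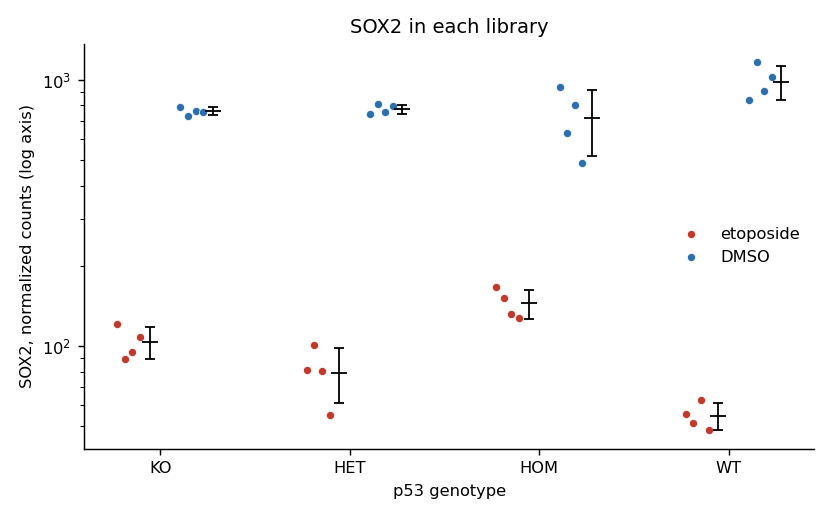
SOX2 in normalized counts (log axis) for each of the 32 libraries by p53 genotype, with etoposide left (red) and DMSO right (blue); points are libraries, bars the group mean and SD (n = 4). All etoposide libraries lie at or below 166.2 and all DMSO libraries at or above 486.3, and WT etoposide libraries are the lowest group.

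The level left with etoposide, as a share of the DMSO mean, was 13.6% in KO, 10.2% in HET, 20.1% in HOM and 5.54% in WT. On the log2 scale of the fit (normalized count plus 1) the differences were -2.88 in KO, -3.30 in HET, -2.27 in HOM and -4.15 in WT, each with a standard error (SE) of 0.16. The HOM value was -2.70 without replicates 2 to 4 of DMSO and -1.26 with libraries scaled to equal totals. Poly-A RNA from whole plates was measured, so fewer SOX2-expressing cells and less SOX2 RNA per cell cannot be told apart. SOX2-OT, the long noncoding gene in whose intron SOX2 lies on the same strand, was not analysed here.

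With etoposide, SOX2 was higher in KO and in HOM cells than in WT cells. A gene was called when limma's adjusted p, taken over all 16824 genes tested, was under 0.05 and the change at least 1.5-fold. SOX2 averaged 103.2 ± 14 normalized counts in KO and 54.38 ± 6.3 in WT (SD, n = 4 each), a log2 difference of 0.91 ± 0.16 (SE, adjusted p = 4.91e-05), and 4 of 4 KO libraries lay above every WT library. It averaged 144.2 ± 18.2 in HOM, a log2 difference from WT of 1.39 ± 0.16 (adjusted p = 5.54e-08), again with no overlap. Both calls held under all 17 alternatives tried, with log2 differences of 0.63 to 1.02 in KO and 1.0 to 1.61 in HOM. The libraries in these comparisons, and in the SOX2 genotype comparisons that follow, are among the values on which SOX2 was chosen. The SOX2 p-values are therefore not independent of that choice.

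HET cells averaged 79.31 ± 18.6, and their log2 difference from WT of 0.51 (95% interval 0.19 to 0.83, adjusted p = 1.61e-02) fell short of 1.5-fold, with overlapping libraries. It was called without replicate 4 of HET (0.67, adjusted p = 2.16e-03) and with equal totals (0.75, adjusted p = 1.70e-02). HOM and KO cells with etoposide differed by 0.48 (0.16 to 0.80, adjusted p = 3.67e-02), also short of 1.5-fold, although every HOM library lay above every KO library. In order of mean level with etoposide, HOM stood above KO without overlap, while KO and HET, and HET and WT, overlapped. The difference between the etoposide responses was 1.27 ± 0.23 (SE) for KO minus WT, 0.84 ± 0.23 for HET minus WT and 1.88 ± 0.23 for HOM minus WT on the log2 scale, given with no test. The last was 1.44 without replicates 2 to 4 of HOM with DMSO and 2.66 with equal totals.

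With DMSO no genotype difference in SOX2 was called. SOX2 averaged 760.2 ± 26.3 in KO, 775 ± 31.3 in HET, 715.6 ± 198 in HOM and 981.7 ± 141 in WT. The log2 differences from WT were -0.36 in KO (95% interval -0.68 to -0.04, adjusted p = 1.83e-01), -0.33 in HET (-0.65 to -0.01, adjusted p = 9.99e-02) and -0.49 in HOM (-0.81 to -0.17, adjusted p = 1.14e-02). The KO and HET libraries all lay below the lowest WT library, and the HOM libraries overlapped WT. Without replicates 2 to 4 of HOM the HOM difference was -0.05, whereas it was called without replicate 1 of HOM (-0.63, adjusted p = 1.01e-03) and with equal totals (-1.05, adjusted p = 5.90e-04).

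Genes whose levels followed SOX2 most closely included MAP2K6, LNP1, IL17D and NCAM1. Pearson's r with SOX2 was 0.980 for MAP2K6, 0.976 for LNP1, 0.958 for IL17D and 0.957 for NCAM1 over the 32 libraries, on the log2 scale, among the 13685 genes whose mean reached 50 in some group. The libraries share the 8 groups and fall into an etoposide and a DMSO cluster, so r mainly ranks genes by that split. MAP2K6, a kinase that activates p38, averaged 19.4 in KO, 12.4 in HET, 23.7 in HOM and 10.6 in WT with etoposide, and 167.3 in KO, 150.8 in HET, 133.5 in HOM and 288 in WT with DMSO. NCAM1, a neural cell adhesion molecule, averaged 465 in KO, 360.1 in HET, 593.8 in HOM and 289.6 in WT with etoposide, and 1164.4, 1104.7, 1724.2 and 1701.2 with DMSO. MAP2K6 shared the lowest etoposide level in WT and the highest DMSO level in WT, and NCAM1 the lowest etoposide level in WT. Of the other SOX genes, SOX5 stood nearest at place 128 (r = 0.872), then SOX12 at 468, SOX6 at 568 and SOX4 at 607, while SOX9, SOX13 and SOX8 came at 4654, 4925 and 8434. SOX11 was too low to be ranked.

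Of 12 reported regulators of SOX2 that were tested, 1 rose and 3 fell with etoposide in KO, 2 rose and 4 fell in HET, 4 rose and 5 fell in HOM, and 2 rose and 4 fell in WT. Over all tested genes 18.1% rose and 14.5% fell in KO, 17.5% and 12.7% in HET, 37.2% and 28.5% in HOM, and 20.1% and 14.9% in WT. Against replicate 1 of HOM with DMSO alone, 1 of the 12 rose and 4 fell in HOM, where 20.9% of all genes rose and 17.3% fell. GLI1 and GLI2, transcription factors of the Hedgehog pathway reported to activate SOX2, fell in all 4 genotypes. The falls were 1.30 to 2.10 for GLI1 and 1.70 to 2.90 for GLI2 on the log2 scale. With replicate 1 as the only HOM library with DMSO, the HOM changes were -1.07 for GLI1 and -2.42 for GLI2. GLI2 averaged 598.6 ± 37.8 with etoposide and 1995 ± 520 with DMSO in WT (SD, n = 4 each, adjusted p = 8.65e-09). CDKN1A encodes the p53-induced cell-cycle inhibitor p21, reported in mouse to bind a Sox2 enhancer. CDKN1A rose in every genotype, by 1.54 in KO, 3.53 in HET, 1.34 in HOM and 2.89 in WT. The HOM rise was 1.90 against replicate 1 of DMSO alone. With etoposide CDKN1A averaged 8875 ± 655 in KO, 17880 ± 988 in HET, 7526 ± 407 in HOM and 34111 ± 2040 in WT, the reverse of the order of mean SOX2 levels there. With DMSO the order was not reversed. CDKN1A averaged 3063 in KO, 1551 in HET, 3077 in HOM and 4651 in WT, and SOX2 was also highest in WT. The rise of CDKN1A was largest in HET, and the fall of SOX2 was largest in WT. A link between them was not tested. CDKN1B, the related inhibitor p27, was higher with etoposide in KO, at 1031 ± 71 in KO and 482.1 ± 45.1 in WT.

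The pluripotency partners of SOX2 were too few for their calls with etoposide to be set apart from the shares of all genes. Of 16 listed genes 11 were tested, of which 3 rose and 0 fell in KO, 1 rose and 0 fell in HET, 3 rose and 2 fell in HOM, and 3 rose and 0 fell in WT. Over all genes the shares in the same order were 18.1% and 14.5%, 17.5% and 12.7%, 37.2% and 28.5%, and 20.1% and 14.9%. With replicate 1 as the only HOM library with DMSO, their median log2 change in HOM was -0.10, against 0.34 with all HOM libraries. MYC rose in WT to 2620 ± 179 with etoposide, against 1155 ± 61.1 with DMSO, and in HET to 1600 ± 69.9, against 750.2 ± 93.7. Most other members that rose were barely detected, such as KLF4 at 12.1 ± 2.46 with etoposide and 3.05 ± 2.4 with DMSO in KO, and LIN28A at 9.683 ± 2.44 and 2.117 ± 1.07 in WT. ESRRB, an orphan nuclear receptor, was lower with etoposide in the 3 edited genotypes than in WT, at 26.74 ± 7.92 in KO, 36.18 ± 3.79 in HET, 28.24 ± 4.97 in HOM and 84.04 ± 6.23 in WT.

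Genes of the Hippo pathway, parts of which SOX2 is reported to repress in osteosarcoma cells, differed by genotype with etoposide. Of the 14 listed, 8 were lower and 0 higher in KO than in WT (median log2 difference -0.62), 2 were lower and 1 higher in HET (-0.08), and 11 were lower and 0 higher in HOM (-0.93), where the median over all tested genes was -0.03, 0.00 and -0.01. Of all genes, 15.0% were lower and 11.7% higher in KO, 13.2% and 10.1% in HET, and 14.7% and 14.0% in HOM, so the HET counts were at the level of all genes. CCN2, a secreted target of the coactivators YAP1 and WWTR1, averaged 4101 ± 194 in KO, 4495 ± 166 in HET, 2706 ± 146 in HOM and 10080 ± 265 in WT with etoposide. CCN1 averaged 2871 ± 138 in HOM and 9240 ± 243 in WT. With etoposide in WT, 5 of the 14 rose and 3 fell, against 20.1% and 14.9% of all genes, and CCN2 rose to 10080 ± 265, against 2601 ± 362 with DMSO.

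Among the 8 listed SOX genes other than SOX2, falls with etoposide outnumbered rises in every genotype. In KO 1 of 8 rose and 5 fell, where 18.1% of all tested genes rose and 14.5% fell. In HET 0 rose and 4 fell, against 17.5% and 12.7% of all genes. In HOM 0 rose and 5 fell, against 37.2% and 28.5%, and in WT 0 rose and 4 fell, against 20.1% and 14.9%. At an unadjusted p under 0.05 in the same limma fit, 0 of the 8 rose in HET and WT and 1 in HOM. With voom weights, the other limma fit, 0 rises passed the adjusted p and 1.5-fold limits in all 3 genotypes. SOX5, SOX6 and SOX12 fell in all 4 genotypes. The 4 tested SOX family genes outside the list did not share this balance. Of them 2 rose and 0 fell in KO and in HOM, 1 rose and 1 fell in HET, and 1 rose and 0 fell in WT. The balance of rises and falls over all genes depended on the scaling: with equal totals 10596 genes rose and 1009 fell in HOM, against 6256 and 4788, and 4804 rose and 1189 fell in KO, against 3039 and 2444.

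**Figure D2:**
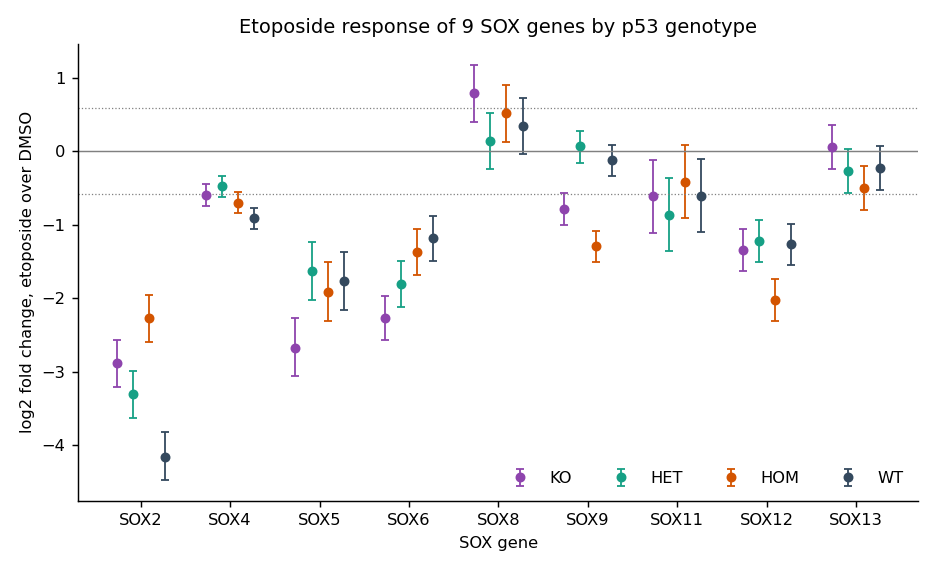
Log2 fold change of etoposide over DMSO for the 9 SOX genes in KO, HET, HOM and WT cells (points, n = 4 libraries per group) with 95% intervals; dotted lines mark 1.5-fold. SOX2, SOX5, SOX6 and SOX12 lie below -1 in every genotype, and SOX9 lies below the lower line in KO (-0.78) and HOM (-1.29) only.

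Of the SoxD genes, SOX5 and SOX6 fell strongly and SOX13 was called with etoposide in no genotype. SOX5 had 23.97, 42.55, 37.34 and 52.96 normalized counts with etoposide in KO, against 256, 241, 242.3 and 240.5 with DMSO. In WT it had 66.35, 91.32, 70.54 and 69.39 with etoposide, against 252.6, 296.4, 232.7 and 235.9 with DMSO. All etoposide libraries were below all DMSO libraries, and the KO etoposide libraries were below those of WT. The log2 changes of SOX5 were -2.67 ± 0.20 in KO, -1.62 ± 0.20 in HET, -1.91 ± 0.20 in HOM and -1.76 ± 0.20 in WT (SE, adjusted p 1.36e-07 or less). Against replicate 1 of HOM with DMSO alone the HOM change was -2.34.

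SOX6 had 92.19, 65.99, 56.01 and 67.25 with etoposide in KO, against 348.4, 310.6, 318.4 and 373.1 with DMSO. In WT it had 107.5, 96.33, 136.7 and 139.8 with etoposide, against 253.5, 326.5, 278.1 and 233.9 with DMSO. Again no libraries overlapped between the treatments. The SOX6 changes were -2.27 ± 0.16 in KO, -1.80 ± 0.16 in HET, -1.37 ± 0.16 in HOM and -1.18 ± 0.16 in WT (SE, adjusted p 3.35e-07 or less). The HOM change was -1.51 against replicate 1 of DMSO alone, and its call was lost with equal totals, at -0.37. The protein-coding gene C11orf58 overlaps SOX6 on the opposite strand and the strand used in counting is not stated; C11orf58 averaged 1624 ± 148 with etoposide and 1403 ± 174 with DMSO in KO.

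SOX13, a SoxD gene without a fixed cartilage role, averaged 903.9 ± 69.6 with etoposide and 868.5 ± 92.9 with DMSO in KO, 628.2 ± 59.2 and 764.2 ± 145 in HET, 1022 ± 120 and 1475 ± 387 in HOM, and 1004 ± 120 and 1185 ± 188 in WT. Its log2 changes were 0.06 (95% interval -0.24 to 0.36), -0.27 (-0.57 to 0.03), -0.50 (-0.80 to -0.20) and -0.23 (-0.53 to 0.07) in that order. By limma the HOM change had an adjusted p of 4.34e-03 but was short of 1.5-fold. Libraries overlapped in every genotype. In HOM the DMSO values were 1060, 1305, 1572 and 1964, with the lowest in replicate 1, and against replicate 1 alone the change was -0.06. Without replicate 1 it was -0.65 and called, and with equal totals it was 0.51.

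**Figure D3:**
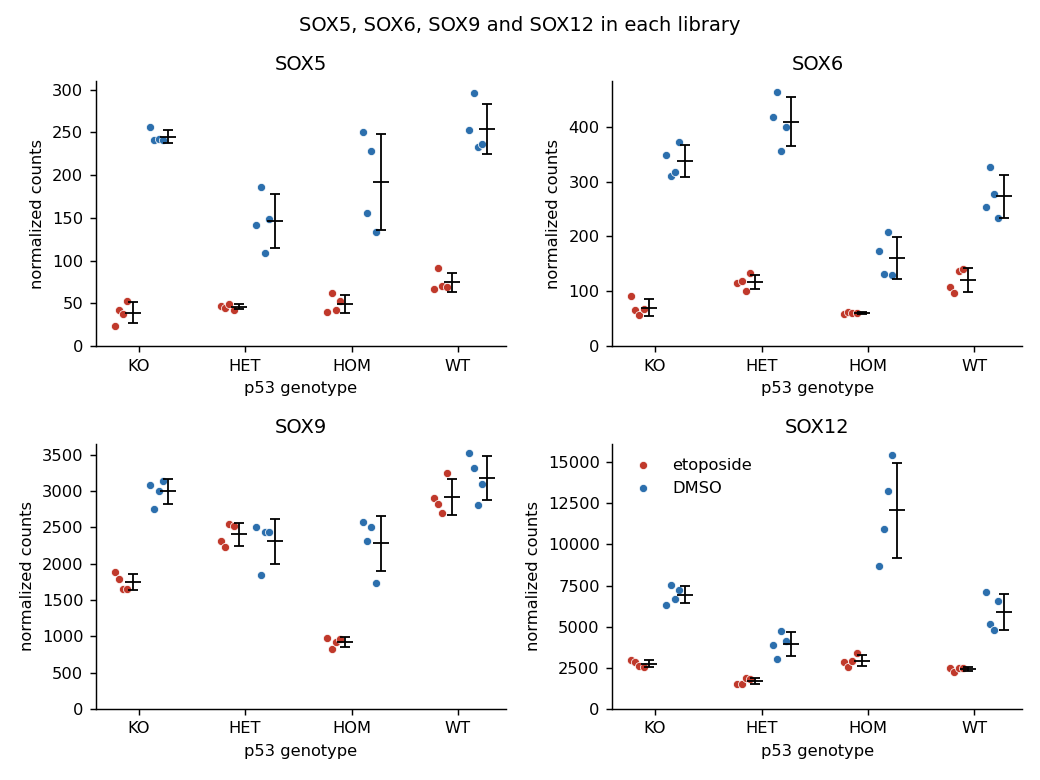
SOX5, SOX6, SOX9 and SOX12 in normalized counts (axes from 0) in each library by p53 genotype, etoposide left (red) and DMSO right (blue), with group mean and SD (n = 4). SOX5, SOX6 and SOX12 are lower with etoposide in every genotype, while SOX9 separates by treatment in KO and HOM but overlaps in HET and WT.

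SOX5 and SOX6 are very long genes, with bodies of 1033 kb at chr12:23529500-24562544 and 773.1 kb at chr11:15966449-16739591. Long genes fell more often than the rest in KO, HET and WT. Of the 280 tested genes of 500 kb or more, 47.5% fell with etoposide in KO, 29.6% in HET, 36.4% in HOM and 29.3% in WT. Of the 6935 genes of 10 to 50 kb, 8.95% fell in KO, 10% in HET, 27.8% in HOM and 12.3% in WT. In HOM the genes under 10 kb fell slightly more often than the longest, at 38.8%. Against replicate 1 of HOM with DMSO alone, 41.8% of the longest class, 13.0% of those of 10 to 50 kb and 18.6% of those under 10 kb fell in HOM. SOX2, SOX4, SOX8, SOX9, SOX11 and SOX12 have bodies of 2.513 to 8.719 kb, and SOX13 has a body of 54.63 kb. The part of length in the falls of SOX5 and SOX6 was not tested.

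**Figure D4:**
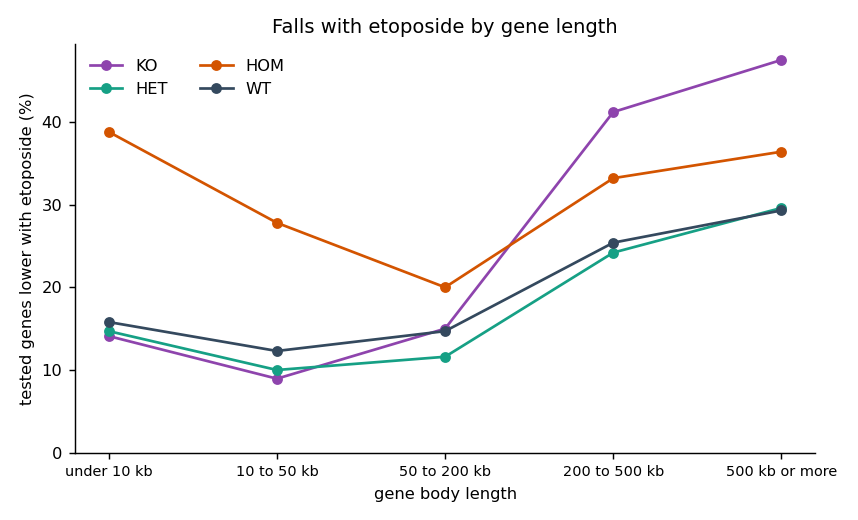
Share of tested genes called lower with etoposide (percent) by gene body length in KO, HET, HOM and WT cells. The share reaches 47.5% in KO for genes of 500 kb or more, the class of SOX5 and SOX6, against 29.3% in WT.

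Of the SoxC genes, SOX12 fell in all 4 genotypes and SOX4 in 3, and SOX11 was scarce. SOX12 had 2992, 2864, 2597 and 2533 normalized counts with etoposide in KO, against 6336, 7526, 6698 and 7213 with DMSO. In HOM it had 2836, 2559, 2914 and 3385 with etoposide, against 8681, 10957, 13226 and 15435 with DMSO. In WT it had 2491, 2239, 2493 and 2476 with etoposide, against 7115, 5143, 4786 and 6561 with DMSO. Treatments did not overlap in any genotype, and the HOM libraries with DMSO were the highest of all. The log2 changes were -1.34 in KO, -1.22 in HET, -2.02 in HOM and -1.26 in WT, each ± 0.15 (SE, adjusted p 8.35e-08 or less). In HOM the change was -1.58 against replicate 1 of DMSO alone and -1.01 with equal totals. These calls held under every alternative tried.

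SOX4 had 846.6, 930.2, 922.3 and 933 normalized counts with etoposide in WT, against 1720, 1720, 1830 and 1583 with DMSO. In KO it had 1487, 1237, 1453 and 1497 with etoposide, against 2103, 1922, 2086 and 2441 with DMSO. The treatments did not overlap in either genotype. SOX4 fell by 0.59 ± 0.08 in KO, 0.70 ± 0.08 in HOM and 0.91 ± 0.08 in WT on the log2 scale (SE, adjusted p 2.69e-07 or less). The HET change was -0.47 (adjusted p = 7.16e-06), short of 1.5-fold. The KO call sat at the 1.5-fold limit and was lost without replicate 4 of KO with DMSO (-0.52) or replicate 2 of KO with etoposide (-0.53). In HOM the change was -0.79 against replicate 1 of DMSO alone, and its sign depended on the scaling, with 0.32 at equal totals (adjusted p = 5.06e-02).

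SOX11 averaged 18.48 ± 6.05 with etoposide and 27.9 ± 3.95 with DMSO in KO, 15.05 ± 7.49 and 26.47 ± 7.17 in HET, 32.25 ± 3.87 and 43.23 ± 4.71 in HOM, and 17.57 ± 1.11 and 27.74 ± 6.68 in WT. Only the HET change was called (-0.86 ± 0.26, SE, adjusted p = 7.09e-03), although the HET libraries overlapped, and it was lost without replicate 3 of HET with etoposide (-0.63, adjusted p = 5.06e-02). Of 6 tested targets reported for SOX4 and SOX11, 2 fell in KO, 4 fell and 1 rose in HET, 2 fell in HOM and 5 fell in WT, with medians of -0.24, -0.86, -0.45 and -1.18. Of all genes 14.5% fell in KO, 12.7% in HET, 28.5% in HOM and 14.9% in WT, and the differences between the genotypes' counts were not tested. Against replicate 1 of HOM with DMSO alone the HOM count was also 2, with a median of -0.48. TEAD2, a Hippo pathway transcription factor, fell in all 4, and STMN1, a microtubule regulator, averaged 14240 ± 529 in KO, 12510 ± 826 in HOM and 4175 ± 197 in WT with etoposide.

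Of the SoxE genes, SOX9 was called lower with etoposide in KO and HOM only, and SOX8 was called higher in KO only. SOX9 had 1879, 1783, 1655 and 1650 normalized counts with etoposide in KO, against 3084, 2759, 2996 and 3145 with DMSO. In HOM it had 976.6, 829.4, 923.4 and 957.5 with etoposide, against 2572, 2309, 2506 and 1733 with DMSO. In these genotypes no library overlapped between treatments. In HET it had 2306, 2235, 2550 and 2521 with etoposide, against 2510, 1846, 2442 and 2441 with DMSO. In WT it had 2908, 2816, 2692 and 3256 with etoposide, against 3518, 3316, 2812 and 3092 with DMSO. HET and WT libraries overlapped. The log2 changes of SOX9 were -0.78 ± 0.11 in KO (SE, adjusted p = 1.05e-06), 0.07 in HET (95% interval -0.15 to 0.28), -1.29 ± 0.11 in HOM (adjusted p = 4.07e-11) and -0.12 in WT (-0.34 to 0.09). With equal totals the KO and HOM calls were lost, at -0.48 and -0.28, and against replicate 1 of HOM with DMSO alone the HOM change was -1.48.

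The responses of SOX9 differed from that of WT in KO by -0.66 ± 0.15 (SE, adjusted p = 2.49e-03) and in HOM by -1.17 ± 0.15 (adjusted p = 7.98e-07), and in HET by 0.19 (95% interval -0.11 to 0.49), which was not called. With equal totals both calls were lost, at -0.58 in KO (adjusted p = 1.36e-01) and -0.38 in HOM (adjusted p = 1.99e-01), and without replicates 2 to 4 of HOM with DMSO the HOM value was -1.36. With etoposide alone, SOX9 was lower than in WT by 0.74 ± 0.11 in KO (adjusted p = 2.27e-06) and by 1.66 ± 0.11 in HOM (adjusted p = 3.76e-13). It was also lower in HOM than in KO, by 0.92 ± 0.11 (adjusted p = 2.54e-07). These calls with etoposide held under all 17 alternatives each, and no HOM library overlapped a KO or WT library.

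Cartilage genes that SOX9, SOX5 and SOX6 control in chondrocytes were called in both directions. Of 14 tested, 3 rose and 4 fell with etoposide in KO, 6 rose and 2 fell in HET, 5 rose and 2 fell in HOM, and 4 rose and 2 fell in WT, with medians of 0.29, 0.65, 0.48 and 0.36. The shares of all genes that rose and fell were 18.1% and 14.5% in KO, 17.5% and 12.7% in HET, 37.2% and 28.5% in HOM, and 20.1% and 14.9% in WT. With replicate 1 as the only HOM library with DMSO, 5 rose and 3 fell in HOM, with a median of 0.35. FGFR3, a growth factor receptor of growth-plate cartilage, rose in WT to 278.9 ± 12 with etoposide, against 65.5 ± 11.2 with DMSO. HAPLN1, which links aggrecan to hyaluronan, averaged 1240 ± 80.7 with etoposide and 2969 ± 441 with DMSO in WT, and fell there and in KO and HET. ACAN, aggrecan itself, was higher with etoposide in KO and HOM and lower in HET, at 413.1 ± 16 in KO, 593.4 ± 175 in HOM, 77.32 ± 13.5 in HET and 191 ± 13.5 in WT.

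SOX8 differed more between HET and WT cells than between treatments. It had 24.55, 36.91, 34.08 and 36.24 normalized counts in HET with etoposide, and 31.48, 17.35, 34.12 and 39.82 in HET with DMSO. In WT it had 218.4, 168.6, 194.2 and 204.3 with etoposide, and 148.7, 151.3, 160.3 and 155.3 with DMSO. Every HET library was below every WT library. SOX8 was lower than in WT in HET, by 2.55 ± 0.20 with etoposide (SE, adjusted p = 3.77e-11) and by 2.35 ± 0.20 with DMSO (adjusted p = 1.06e-10). It was lower in KO too, by 0.83 ± 0.20 with etoposide and 1.27 ± 0.20 with DMSO. With etoposide it rose in KO, to 110.7 ± 15.9, against 65.05 ± 19.8 with DMSO (log2 change 0.79 ± 0.20, adjusted p = 1.67e-03). The changes in HET, HOM and WT, 0.14, 0.52 and 0.34, were not called. The HOM change was called against replicate 1 of DMSO alone (0.86, adjusted p = 2.03e-02), without replicate 4 of DMSO (0.58) and with equal totals (1.52).

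The low SOX8 level in HET came with low levels of its neighbours on chromosome 16, a comparison chosen after the SOX8 values were seen. Of 36 tested genes within 500 kb of SOX8, 20 were lower and 0 higher in HET than in WT with etoposide, where 13.2% of all genes were lower, and 25 were lower and 0 higher with DMSO, where 16.4% of all genes were lower. The median log2 differences of the neighbours were -0.68 and -0.83. In KO with DMSO 1 of the 36 was lower and 0 higher, where 5.59% and 2.75% of all genes were. In HOM with etoposide 12 were lower and 0 higher, where 14.7% and 14.0% of all genes were. In HOM with DMSO 4 were lower and 10 higher, where 27.6% and 20.0% of all genes were. Around SOX6 in HET, 3 of 7 neighbours were higher than in WT with etoposide and 4 with DMSO, where 10.1% and 16.1% of all genes were higher, and 0 were lower with either.

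With etoposide the SOX genes differed from WT in 6 of 9 cases in KO, 3 of 9 in HET and 5 of 9 in HOM. In KO 2 were higher, SOX2 and SOX4, and 4 lower, SOX5, SOX6, SOX8 and SOX9, against 11.7% and 15.0% of all tested genes. In HET 0 were higher and 3 lower, SOX5, SOX8 and SOX13, against 10.1% and 13.2%. At an unadjusted p under 0.05 in limma 1 was higher. With voom weights 0 were higher at the adjusted p and 1.5-fold limits. In HOM 2 were higher, SOX2 and SOX11, and 3 lower, SOX5, SOX6 and SOX9, against 14.0% and 14.7%. SOX4 averaged 1419 ± 122 in KO and 908 ± 41.2 in WT, a log2 difference of 0.64 ± 0.08 (SE, adjusted p = 5.63e-08). SOX6 averaged 70.36 ± 15.4 in KO, 60.33 ± 2.02 in HOM and 120.1 ± 21.5 in WT. SOX5 averaged 39.21 ± 12.1 in KO, 46.14 ± 3 in HET, 49.44 ± 10.3 in HOM and 74.4 ± 11.4 in WT, and the call in HOM, at exactly the 1.5-fold limit, was lost without replicate 1 or 3 of HOM or replicate 2 of WT (-0.50, -0.52 and -0.49). The HET call of SOX5 was lost without replicate 2 of WT (-0.57). At equal totals the SOX5 calls were lost in HET (-0.43) and HOM (-0.37), as was the SOX13 call in HET (-0.43). There SOX2 was called higher in HET (0.75). SOX11 averaged 32.25 ± 3.87 in HOM and 17.57 ± 1.11 in WT (adjusted p = 9.45e-03), without overlap.

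**Figure D5:**
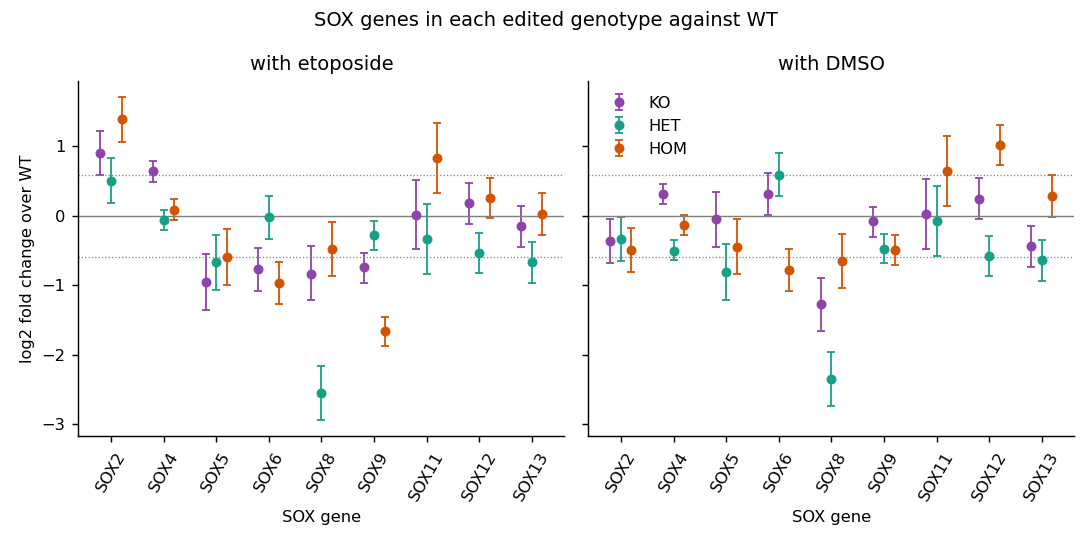
Log2 fold change over WT of the 9 SOX genes in KO, HET and HOM cells, with etoposide (left) and DMSO (right), with 95% intervals (n = 4 libraries per group); dotted lines mark 1.5-fold. SOX2 lies above the upper line in KO (0.91) and HOM (1.39) with etoposide, and SOX8 lies lowest in HET under both treatments (-2.55 and -2.35).

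With DMSO fewer SOX genes differed from WT in KO than with etoposide. In KO 0 of 9 were higher and 1 lower, SOX8, against 2.75% and 5.59% of all tested genes. At an unadjusted p under 0.05 in limma 1 was higher. With voom weights 0 were higher at the adjusted p and 1.5-fold limits. In HET 1 was higher, SOX6, and 3 lower, SOX5, SOX8 and SOX13, against 16.1% and 16.4%. SOX6 averaged 409.6 ± 44.4 in HET and 273 ± 40 in WT, a log2 difference of 0.59 at the 1.5-fold limit that was lost without replicate 1 or 2 of HET or 1 or 4 of WT (0.52 to 0.58). SOX13 averaged 764.2 ± 145 in HET and 1185 ± 188 in WT (-0.64, adjusted p = 1.28e-03), and was lost without replicate 2 of HET (-0.52) or replicate 1 or 4 of WT (-0.58 and -0.57).

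In HOM with DMSO 2 of 9 were higher than in WT, SOX11 and SOX12, and 2 lower, SOX6 and SOX8, against 20.0% and 27.6% of all genes. SOX12 averaged 12075 ± 2910 in HOM and 5901 ± 1110 in WT, a log2 difference of 1.02 ± 0.15 (SE, adjusted p = 5.09e-06). With replicate 1 as the only HOM library the SOX12 difference was 0.58 (adjusted p = 8.43e-02), and of the 4 only SOX8 was still called. The SOX12 call was also lost after quantile normalization (0.44). With equal totals 0 of 9 were higher in HOM and 6 lower. SOX2, SOX4, SOX5 and SOX9 joined SOX6 and SOX8, and SOX11 and SOX12 (0.46) lost their calls. Over all tested genes, 555 of 16824 were then higher in HOM and 7709 lower. SOX6 averaged 160.9 ± 37.8 in HOM and 273 ± 40 in WT (-0.78), and -0.64 with replicate 1 alone. SOX11 (0.65, adjusted p = 2.84e-02) lost its call when any 1 of 4 libraries was left out, replicate 2 or 4 of HOM (0.60 and 0.61) and replicate 2 or 3 of WT (0.62 and 0.49), and SOX8 without replicate 1 of HOM (-0.53).

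HOM and KO cells were also set against each other. With etoposide 1 gene was higher in HOM, SOX11, and 1 lower, SOX9, against 7.47% and 4.67% of all genes. SOX11 averaged 32.25 ± 3.87 in HOM and 18.48 ± 6.05 in KO (0.81, adjusted p = 2.17e-02) and lost its call without replicate 1 or 3 of HOM (0.76 and 0.78) or replicate 3 of KO (0.64). With DMSO 4 were higher in HOM, SOX8, SOX11, SOX12 and SOX13, and 1 lower, SOX6, against 22.6% and 28.6% of all genes. With replicate 1 as the only HOM library, only the SOX6 call stayed, at -0.95 (adjusted p = 3.71e-03), against -1.09 with all 4. With equal totals the balance turned, to 0 higher and 5 lower in HOM, SOX2, SOX4, SOX5, SOX6 and SOX9. Over all tested genes, 966 of 16824 were then higher in HOM and 7538 lower. Leaving out single libraries also ended the calls of SOX8 (5 of 8 libraries, 0.54 to 0.58), SOX11 (4 of 8, 0.56 to 0.58) and SOX13 (replicate 4 of HOM, 0.58).

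Differences between the etoposide responses were called for 3 of the 8 other genes in KO and for 2 in HOM. In KO, SOX5 (-0.90 ± 0.29, SE, adjusted p = 2.58e-02), SOX6 (-1.08 ± 0.22, adjusted p = 6.56e-04) and SOX9 fell further than in WT and 0 fell less, where 8.13% of all tested genes had a more negative and 7.11% a more positive response. The SOX5 call was lost without replicate 1 of KO or replicate 2 of WT with etoposide (-0.69 and -0.80), with equal totals (-0.83) and with the deposited values (-0.55). In HET 0 of 8 differed, against 1.78% more negative and 2.97% more positive. At an unadjusted p under 0.05 in limma 1 was lower and 1 higher. With voom weights 0 passed the adjusted p and 1.5-fold limits. In HOM, SOX9 and SOX12 (-0.76 ± 0.21, adjusted p = 3.52e-03) differed, both more negative, against 23.9% more negative and 26.2% more positive over all genes. The SOX12 difference was -0.31 with replicate 1 as the only HOM library with DMSO, 0.03 with equal totals and 0.00 after quantile normalization. With equal totals neither call stayed in HOM, and SOX4 (1.0), SOX8 (0.95) and SOX11 (0.95) were called with more positive responses instead. Over all tested genes, 8238 of 16824 then had a more positive HOM response and 913 a more negative one.

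Of 10 other SOX family genes in the matrix, 4 were tested, SOX7, SOX15, SOX17 and SOX18. With etoposide 2 of these rose in KO, 1 rose and 1 fell in HET, 2 rose in HOM and 1 rose in WT, where 18.1%, 17.5%, 37.2% and 20.1% of all genes rose and 12.7% fell in HET. Against replicate 1 of HOM with DMSO alone 3 of the 4 rose in HOM. SOX17, a SoxF gene of endoderm and vessels, averaged 202.7 ± 22.2 with etoposide and 100.8 ± 7.82 with DMSO in KO, 200.2 ± 22.1 and 79.88 ± 12.4 in HET, and 204.9 ± 15.7 and 90.06 ± 11.3 in WT, rising in all 3. SOX18, also a SoxF gene, was higher than in WT with etoposide in KO and HOM and lower in HET, at 200.7 ± 28.9 in KO, 329.3 ± 59.7 in HOM, 78.71 ± 16.7 in HET and 119.3 ± 14.2 in WT. SOX1, SOX3 and SOX21, of the SoxB group to which SOX2 belongs, reached no more than 6.331, 2.891 and 5.257 in any library.

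The authors' deposited tables compare genotypes at the same treatment. For SOX2 with etoposide, the authors' deposited table gives log2 fold changes of 0.92 for KO over WT (adjusted p = 5.62e-06) and 1.40 for HOM over WT (adjusted p = 1.90e-13). For SOX9 with etoposide, the authors' deposited table gives -0.74 for KO over WT and -1.66 for HOM over WT. For SOX12 with DMSO, the authors' deposited table gives 1.03 for HOM over WT (adjusted p = 2.77e-10).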

How the data were processed

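Per the submitters' processing notes, the authors used kallisto and DESeq2, in versions that the sources used here do not give. The authors deposited variance-stabilized values on a log2 scale for 35587 genes in 32 libraries. They also deposited tables of 6 genotype comparisons with log2 fold changes, p-values, a test score (Wald statistic) and the mean signal, that is, the mean of counts divided by library factors. Normalized counts were recovered by inverting the deposited log2 values, matched to those deposited means within a relative 4.4e-14, and counts from their whole-number steps (tolerance 0.01). Because the deposited unit is log2 rather than counts, log2(normalized count + 1) was tested with limma 3.58.1 in R 4.3.3 over the 16824 genes with at least 10 normalized counts in 4 or more libraries. All 8 groups shared one fit, with Benjamini-Hochberg adjustment. A call needed an adjusted p under 0.05 and a change of 1.5-fold. The method was tested on simulated data.

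The members, lists and tests were chosen with earlier results of these data known. All 9 members were named, each list named up to 2 called genes with the largest rise and 2 with the largest fall per comparison, and CDKN1A always; markers and SOX1, SOX3 and SOX21 were named outside that rule, after their values were seen. Some items that the naming rule covers are not reported here. Replicate numbers named plates and were left out of the main fit. No replicates agreed within sampling noise (chi-square over degrees of freedom 1.85 to 236.32 in 48 pairs). Gene positions are from GENCODE on GRCh38, and strand use in counting is not stated. Alternatives were the pseudocount (5), no filter, equal totals, quantile normalization, the values as deposited, a replicate block, array weights, the compared groups alone, leaving out libraries, and voom weights, the last chosen after seeing the data, as were the list, length and neighbour counts without replicates 2 to 4 of HOM with DMSO.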

Additional observations from a re-analysis of the deposited data

Results flagged for a closer look

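In 7 of 72 gene and group combinations, 1 of the 4 libraries stood apart from the others by Dixon's criterion for outliers; chance alone gives about 1 in 20. SOX4 had 1237 normalized counts in replicate 2 of KO with etoposide and 846.6 in replicate 1 of WT with etoposide, each below the rest of its group. SOX12 was low in replicate 2 of WT with etoposide, at 2239, and SOX9 in replicate 2 of HET with DMSO, at 1846. SOX5 was high in replicate 2 of WT with etoposide, at 91.32, and in replicate 1 of KO with DMSO, at 256. SOX8 was high in replicate 4 of KO with DMSO, at 94.65.

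Etoposide responses differed between genotypes, by limma's test of the difference itself, in 5 cases. On the log2 scale, KO minus WT was -0.90 for SOX5, -1.08 for SOX6 and -0.66 for SOX9. HOM minus WT was -1.17 for SOX9 and -0.76 for SOX12, and the SOX12 difference did not hold without replicates 2 to 4 of HOM with DMSO (-0.31). With equal totals only the SOX6 difference was still called: SOX5 was at -0.83, SOX9 at -0.58 in KO and -0.38 in HOM, and SOX12 at 0.03.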

How the results depend on the processing

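Of 54 calls on the SOX genes, 26 stayed past both thresholds under every alternative. Over 2402 alternative values, 2255 kept the presence or absence of a call, 65 of them with a turned sign and no call. Of the rest, 100 lost a call with the sign kept, 44 gained 1, and 3 lost a call with the sign turned. The last 3 were SOX4 with etoposide in HOM at equal totals (0.32), and the SOX12 response difference HOM minus WT at equal totals (0.03) and after quantile normalization (0.00). Equal totals moved the median of all genes by up to 0.97 (etoposide in HOM), quantile normalization by up to -0.20; the cause was not tested.

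The number of SOX genes called changed by more than 1.5 times as follows. With etoposide in HOM it was 3 at equal totals, against 5. For KO over WT with DMSO it was 2 with array weights, against 1, and for HET over WT with DMSO 2 at equal totals, against 4. For HOM over WT with DMSO it was 2 with quantile normalization, deposited values or array weights, and 1 with the compared groups alone or without replicates 2 to 4 of HOM, against 4. For HOM over WT with etoposide it was 3 with deposited values, against 5. For HOM over KO with DMSO it was 3 with deposited values or the groups alone and 1 without replicates 2 to 4, against 5; with etoposide it was 1 without a filter, after quantile normalization or with deposited values, against 2. Response differences gave 1 for KO at equal totals, against 3, 1 for HET with array weights, against 0, and 1 for HOM without replicates 2 to 4, against 2. At equal totals the balance of directions moved as well: with etoposide, 1 rose and 2 fell in HOM, against 0 and 5, and 1 was higher and 1 lower in HET than in WT, against 0 and 3. Calls in HOM with DMSO were 0 higher and 6 lower over WT, against 2 and 2, and 0 higher and 5 lower over KO, against 4 and 1. The HOM response differences were 3 higher and 0 lower, against 0 and 2. The counts over all genes at equal totals are given below.

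Leaving out 1 library at a time gave 5 to 7 calls with etoposide in KO, 3 to 4 in HET, 5 to 6 in HOM and 4 to 5 in WT. With DMSO it gave 1 for KO, 2 to 5 for HET and 3 to 5 for HOM over WT, and 2 to 5 for HOM over KO. With etoposide it gave 6 for KO, 2 to 4 for HET and 4 to 5 for HOM over WT, and 1 to 3 for HOM over KO. Response differences gave 2 to 3 for KO, 0 for HET and 2 for HOM.

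With the replicate block, 7 SOX genes were called with etoposide in KO, against 6, and 5 in WT, against 4, SOX11 being added in both; the other counts were as without it. Deviations of same-numbered plates correlated at -0.179 to 0.364, and differently numbered plates were not compared. Whether the numbers pair the plates was therefore not settled.

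Counts over all genes moved by more than 1.5 times as follows. At equal totals 4804 genes rose with etoposide in KO, against 3039, and 1189 fell, against 2444. There 1266 fell in HET, against 2141, 10596 rose and 1009 fell in HOM, against 6256 and 4788, and 1485 fell in WT, against 2501. With DMSO, equal totals made 4170 higher and 1613 lower in HET than in WT, against 2710 and 2759, 555 higher and 7709 lower in HOM, against 3371 and 4641, and 966 higher and 7538 lower in HOM than in KO, against 3797 and 4812. With etoposide they made 2741 higher and 1251 lower in HET than in WT, against 1692 and 2220, 1572 lower in HOM, against 2467, and 461 lower in HOM than in KO, against 785. The HOM response was more positive in 8238 and more negative in 913, against 4410 and 4028. Without replicates 2 to 4 of HOM with DMSO, 3519 rose and 2912 fell in HOM, 173 were higher and 591 lower in HOM than in WT, 736 higher and 721 lower than in KO, and the HOM response was more positive in 1509 and more negative in 1595. Without replicate 4 alone 2227 were higher in HOM than in WT with DMSO. The compared groups alone gave 665 higher and 494 lower there, 2179 lower in HOM than in KO, and a more negative HET response in 496, against 299. Quantile normalization gave 3005 lower in HOM than in WT with DMSO. Without a filter 4686 rose in HET, against 2937. Deposited values gave 296 higher and 583 lower in KO than in WT with DMSO, against 463 and 941. Array weights gave 2539 higher in HET than in WT with etoposide, against 1692, and a more positive or negative HET response in 973 and 757, against 500 and 299.

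Genes with few counts limit precision: SOX11 lay at 8.115 to 47.8 normalized counts, where 3 counts are worth up to 6.371. Floors cover counting error only.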

Other observations

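Around SOX8 on chromosome 16, HOM cells were also compared with WT, a comparison chosen after the values were seen. Of the 36 tested genes within 500 kb, 0 were higher and 12 lower in HOM with etoposide, where 14.0% of all genes were higher and 14.7% lower; the median log2 difference was -0.42. With DMSO 10 were higher and 4 lower, where 20.0% of all genes were higher and 27.6% lower. With replicate 1 as the only HOM library with DMSO, 0 were higher and 2 lower, where 1.03% of all genes were higher and 3.51% lower. In KO with etoposide 2 were higher and 4 lower, with a median of -0.16, where 11.7% of all genes were higher and 15.0% lower. Around SOX13, 0 of 13 neighbours were higher and 4 lower in HOM than in WT with etoposide. With DMSO 1 was higher and 6 lower, and 0 and 3 with replicate 1 as the only HOM library. No tested gene lay within 500 kb of SOX2, SOX9 or SOX11.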
